A study of Bos taurus with 4 samples.

Results

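The genes described here encode the protein machinery of pre-mRNA splicing: the Sm and LSm proteins, the other proteins of the small nuclear ribonucleoproteins (snRNPs), the PRPF, SF3 and U2AF splicing factors, the hnRNPs and the SR proteins. They were taken by gene symbol from the annotation of a bovine oligonucleotide array, as every probe whose symbol began with SNRP, SNRNP, PRPF, SF3A, SF3B, U2AF, HNRNP or SRSF or named an LSM gene of the ring family. The rule found 106 of 43794 bovine probes and 66 of 15229 gene symbols. No symbol of this annotation begins with SRSF, because the SR proteins stand there under older names (SFRS1 and so on, and FUSIP1 for SRSF10). The SR class was therefore taken through the current symbols, which added 31 probes and 12 genes, HNRNPDL and HNRNPLL (annotated as HNRPDL and HNRPLL) among them. These 12 genes are described beside the 66 and are not counted with them.

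The spliceosome is built from U1, U2, U4, U5 and U6 snRNPs. A ring of small Sm proteins surrounds the snRNA of U1, U2, U4 and U5, the related LSm ring sits on U6, and PRPF, SF3 and U2AF proteins join the particles to one another or to the intron. The hnRNPs and SR proteins bind the pre-mRNA itself and bias the choice of splice sites. In a fully grown oocyte at the germinal vesicle stage transcription is low, and stored mRNAs are kept with tails of different lengths, of which long tails generally go with translation and short tails with storage or silence.

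The samples were denuded germinal vesicle oocytes of Holstein cows, collected from slaughterhouse ovaries, with no treatment or genetic change. RNA of 4 pools of 200 oocytes each was freed of ribosomal RNA and passed over poly(A)-binding beads. The A150 fraction (labelled as tails of at least 150 nucleotides) was eluted at 75 °C after a first elution at 42 °C, and the A- fraction (labelled as tails of at most 50 nucleotides) came from the flow-through and washes. Each pool gave 1 array on which both its fractions were hybridised, A150 carrying Cy5 for arrays 1 and 2 but Cy3 for arrays 3 and 4. A value is the log2 ratio of A150 over A- on an array, so that a positive value means relatively more signal in the long-tailed fraction, and all errors are SD over the 4 arrays unless stated. The pools mix the RNA of many animals, tail length itself was not measured, and the fractions were amplified before labelling, so the ratio compares relative signals and not amounts of RNA.

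A spot counted as above background when it was brighter, by more than 2 SD, than the average of the 153 negative-control spots of its channel, and a probe was kept when 3 or more arrays had it above that level in A150, in A- or in both. This left 19453 probes and 7799 genes, with a gene represented by its brightest kept probe. Between 9.96% and 60.6% of bovine probes were above background in A150 and between 22.0% and 48.7% in A-, with array 2 the lowest in A150. Of the oocyte markers, 13 of 14 were kept, all 13 of them above background in A150 and 9 in A- on at least 3 arrays. Of 15 cumulus and granulosa markers, 3 were kept (STAR, CYP19A1 and INHBA) and 6 were above background on no array, while all 3 blood markers and 1 of 5 muscle and stroma markers (ACTA2) were kept. The mean raw intensity of the oocyte markers was 7728 to 9723 in A150 and 4872 to 5644 in A-, against 1221 to 1802 and 1336 to 2522 for the cumulus and granulosa markers. The part of other cells in the results was not tested. In pooled RNA, fewer cells holding a transcript and less of it per cell cannot be told apart.

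Of the 66 spliceosome genes, 52 were measured. Their A150 over A- ratio leaned toward the long-tailed fraction, with the highest medians among the Sm, LSm and SF3 genes, of which that of SF3 depended on the filter for dim probes. The PRPF genes had the lowest median, within its spread around 0. The median over the 52 genes was 1.03, 0.37, 0.73 and 0.35 on arrays 1 to 4 (0.62 ± 0.32, n = 4), above the median of all tested genes on each array (-0.02, -0.07, 0.17 and 0.12; 0.05 ± 0.11). The mean ratio was positive for 38 of the 52 genes (73.1%), against 50.6% of all tested genes. All 4 arrays were positive for 17 genes (32.7%), against 13.7% of all tested genes, and all 4 were negative for 4 genes (7.69%), against 8.89%.

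Because the filter admits a gene that is bright in only 1 fraction, the measured genes are not a neutral sample of the 66. Of the 52, 30 were above background on at least 3 arrays in each fraction, 14 in A150 alone, 4 in A- alone and 4 in neither alone. Among all 7799 tested genes the same counts were 3271, 2042, 898 and 1588, so A150 alone was also the commoner of the 1-sided routes there. With no filter, 44 of all 66 genes had a positive mean (66.7%, against 50.5% of the genes of the platform) and the median of the gene means was 0.59, against 0.01. The 14 genes that were not kept were HNRNPA0, HNRNPUL2, PRPF4, PRPF4B, PRPF19, PRPF31, PRPF39, PRPF40B, SF3A2, SF3B3, SF3B4, SF3B5, SNRNP35 and SNRPN. Where a probe is dim in both fractions its ratio is pulled toward 0 and gives little about the transcript.

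No single spliceosome gene passed the test. Limma's moderated test against a ratio of 0, adjusted over all features by the Benjamini-Hochberg method, called 0 of the 72 kept spliceosome probes and 0 of the 52 genes in either direction, where it called 0.0617% of all probes toward A- and 0% toward A150, and 0% of all genes either way. The smallest adjusted p was 0.0705 among the probes (the dimmer of the SNRPG probes) and 0.119 among the genes (LSM2). At an unadjusted p under 0.05, 16 genes (30.8%) lay toward A150, against 9.69% of all tested genes, and 4 (7.69%) toward A-, against 4.19%. The same level took in 20 of the 72 probes toward A150, against 8.03% of all probes, and 4 toward A-, against 5.45%. Single ratios were noisy: the median SD of a gene over the arrays was 1.05 for the spliceosome genes and 0.79 for all tested genes.

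**Figure D1:**
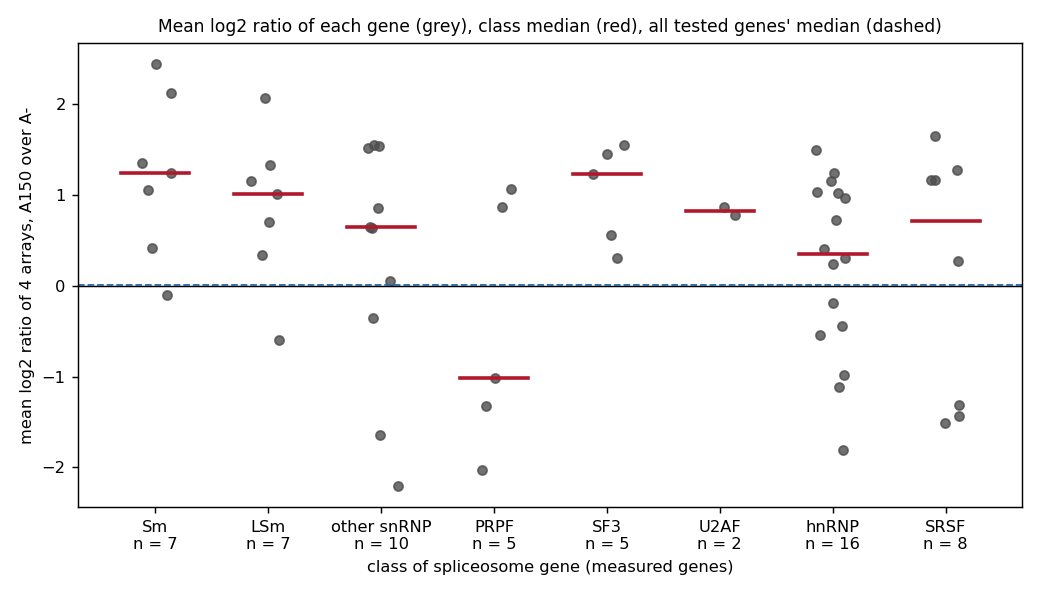
Mean log2 ratio of A150 over A- over 4 arrays for each measured gene (points), by class, with the median of the gene means of the class as a red bar. The Sm, LSm and SF3 genes lie mostly above 0 and the PRPF, hnRNP and SR genes on both sides of it.

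The Sm proteins form the ring that is loaded onto U1, U2, U4 and U5 snRNA in the cytoplasm. Of 8 Sm genes 7 were measured, and 6 had a positive mean. The median over the class was 1.20 ± 0.61, and 3 genes (SNRPD3, SNRPG and SNRPD2) were positive on all 4 arrays.

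SNRPG, which encodes SmG, had ratios of 3.15, 1.43, 1.44 and 2.45 on arrays 1 to 4, a mean of 2.12 ± 0.84 (95% interval of the fit 1.11 to 3.12, limma adjusted p = 0.123). Its other kept probe gave 3.27, 2.12, 2.04 and 2.77, a mean of 2.55 ± 0.58. Both probes thus lay above 1 on every array, in either dye orientation. SNRPD3, encoding SmD3, had 2.61, 4.51, 0.50 and 2.14 (2.44 ± 1.65, limma adjusted p = 0.207) and was above background on 3 arrays in A150 and on 1 in A-. SNRPD2, encoding SmD2, had 1.80, 0.89, 1.90 and 0.36 (1.24 ± 0.74, limma adjusted p = 0.234). SNRPD2 was positive throughout, but its lowest array came near the level of all genes.

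The remaining ring members did not keep 1 sign. SNRPD1, encoding SmD1, had 1.58, 3.70, 1.20 and -1.10 (1.34 ± 1.97), with only array 4 negative. SNRPE, encoding SmE, had 1.99, 1.77, -1.15 and 1.59 (1.05 ± 1.47), with only array 3 negative. SNRPF, encoding SmF, had -0.40, 0.75, 1.20 and 0.12 (0.42 ± 0.71). SNRPB, which encodes SmB, was the 1 Sm gene with a negative mean, at -0.14, -0.84, 0.72 and -0.14 (-0.10 ± 0.64), a value within its spread around 0.

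The LSm proteins form the ring on U6 snRNA, and LSM1 takes the place of LSM8 in the cytoplasmic ring that promotes mRNA decapping. All 7 LSm genes of the array were measured and 6 had a positive mean, with a class median of 1.15 ± 0.52. LSM2 had ratios of 2.73, 2.40, 1.33 and 1.80 (2.06 ± 0.62, or 4.18-fold, 95% interval 1.22 to 2.90, limma adjusted p = 0.119), above 1 on every array. It was above background on 4 arrays in A150 but on 2 in A-, so it was kept through A150 alone. LSM7 had 1.31, 1.25, 0.07 and 2.65 (1.32 ± 1.05), and its other probe had a mean of 1.85 ± 1.23. LSM5 had 2.10, 1.52, 1.16 and -0.18 (1.15 ± 0.97), and its other probe 0.98 ± 0.72. For these genes array 3 or array 4 fell to about 0 while the other arrays stayed above 1.

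LSM1, the member specific to the decapping ring, had 0.35, 0.68, 1.74 and 0.02 (0.70 ± 0.75, limma adjusted p = 0.494) and was above background on 1 array in A-. LSM6 had 3.57, 0.37, -2.56 and 2.64 (1.0 ± 2.73) and LSM3 had 1.88, -2.61, 1.18 and 0.88 (0.33 ± 2.01). Both spanned more than 4 log2 units with 1 strongly negative array each, so their means carry no direction. LSM4, at 0.40, -0.25, -0.25 and -2.27 (-0.59 ± 1.16), was the 1 LSm gene with a negative mean.

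**Figure D2:**
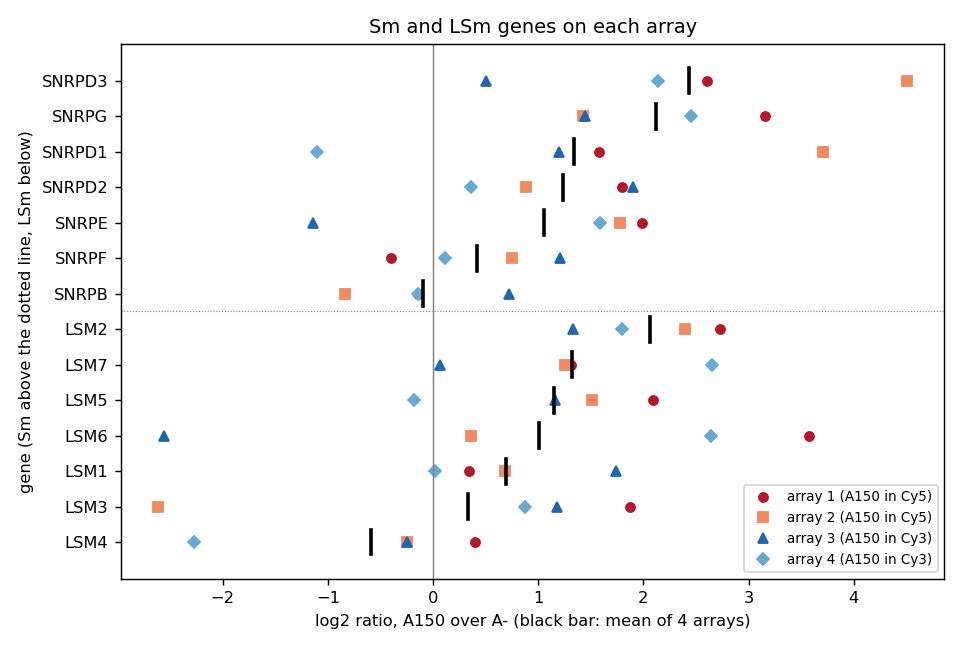
Log2 ratio of A150 over A- of each measured Sm and LSm gene on each of 4 arrays (symbols by array, warm colours for A150 in Cy5 and blue for A150 in Cy3), with the mean as a black bar. SNRPG and LSM2 are above 1 on all 4 arrays, while LSM6 spans -2.56 to 3.57.

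Together, the 14 measured Sm and LSm genes had medians of 1.84, 1.07, 1.17 and 0.62 on arrays 1 to 4 (1.18 ± 0.50, a 2.26-fold higher signal in A150). Of them 12 had a positive mean (85.7%, against 50.6% of all tested genes), 6 were positive on all 4 arrays and none was negative on all 4. Of the 14, 9 were above background on at least 3 arrays in each fraction and 1 in neither alone. A further 4 were kept through A150 alone, which favours a positive ratio, and 0 through A- alone. In the unfiltered data 7 of 8 Sm and 6 of 7 LSm genes had a positive mean. Without array 2, which had the fewest probes above background in A150, the median was 1.21.

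Compared class by class on the same array, the Sm and LSm median exceeded the joint median of the PRPF and SF3 genes by 1.11, 1.02, 0.91 and 0.30 (0.83 ± 0.37, n = 4). It exceeded the hnRNP median by 1.07, 0.99, 0.32 and 0.62 (0.75 ± 0.35) and the SR median by 1.52, 1.40, 0.85 and 0.50 (1.07 ± 0.48). Each of these differences was positive on all 4 arrays and larger than its SD. They were smaller with A150 in Cy3 than in Cy5 (means of 0.60 and 1.07 against PRPF with SF3, 0.47 and 1.03 against hnRNP, and 0.68 and 1.46 against SR), each from 2 arrays. Taken instead as a difference between medians of the gene means, they were 0.39, 0.75 and 0.39. The size of the differences from PRPF with SF3 and from the SR class thus depended on the summary, and their sign did not.

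**Figure D3:**
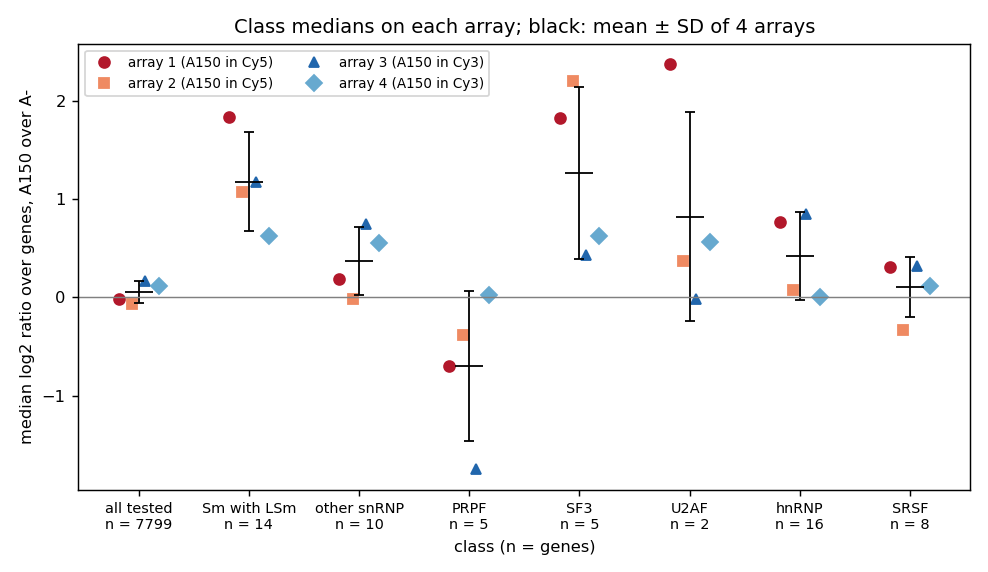
Median log2 ratio of A150 over A- over the measured genes of each class on each of 4 arrays (symbols), with the mean ± SD over arrays, and the same for all tested genes. The Sm with LSm median is above that of the other snRNP, PRPF, hnRNP and SRSF classes on every array. The SF3 median is higher than it on array 2 and the U2AF median on array 1.

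The joint PRPF and SF3 class hides a split. The 5 SF3 genes had a median of 1.82, 2.20, 0.43 and 0.62 (1.27 ± 0.87), which differed from the Sm and LSm median by less than the spread (-0.09 ± 0.77). The 5 PRPF genes had -0.69, -0.38, -1.75 and 0.03 (-0.70 ± 0.76), within its spread around 0, and below the Sm and LSm median by 1.87 ± 1.06 and on all 4 arrays. Both values depended on the filter: over all 9 SF3 genes the median was 0.49 ± 0.29 and over all 11 PRPF genes -0.23 ± 0.29, against 1.18 ± 0.43 for all 15 Sm and LSm genes. The likeness of SF3 to Sm and LSm genes thus held for the measured genes only. With no filter 8 of 9 SF3 genes had a positive mean, against 2 of 11 PRPF genes and 50.5% of all genes on the platform.

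SF3 proteins are the U2 snRNP subunits that clamp the branch point. SF3B6 (annotated as SF3B14), which contacts the branch point adenosine, had 1.56, 2.25, 1.74 and 0.62 (1.54 ± 0.68, limma adjusted p = 0.156) and was positive on all arrays. SF3B1, the large branch point subunit, had 2.50, 2.20, 0.10 and 0.99 (1.45 ± 1.11), but its other probe had -0.25 ± 1.47. The probes of SF3B1 thus give no common direction. SF3A3 had 1.82, 3.16, 0.43 and -0.52 (1.22 ± 1.61), and SF3B2 had 0.75, -0.20, 1.01 and 0.64 (0.55 ± 0.52). SF3A1 had 2.17, -0.41, -0.22 and -0.31 (0.31 ± 1.24), a positive mean that rests on array 1.

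PRPF18, a factor of the second catalytic step, had -2.32, -3.14, -2.01 and -0.65 (-2.03 ± 1.03, limma adjusted p = 0.156), negative on every array. Its other kept probes had means of -0.97 and 0.77. PRPF38A, a factor of spliceosome activation, had -0.69, -2.16, -2.48 and 0.03 (-1.32 ± 1.19), with its other probe at 0.24 ± 0.93. For both genes the probes differed in sign, so the direction holds for the brightest probe only. PRPF6, which bridges the particles of the tri-snRNP, had -1.48, 0.31, -1.75 and -1.15 (-1.02 ± 0.91).

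PRPF3 and PRPF8 lay on the other side. PRPF3, a U4/U6 protein, had 0.69, 1.58, 0.91 and 1.06 (1.06 ± 0.38, limma adjusted p = 0.183), the most even of the PRPF genes over the arrays. PRPF8, the U5 scaffold of the catalytic core, had -0.33, -0.38, 2.83 and 1.35 (0.87 ± 1.53). Its sign followed the dye orientation, being negative with A150 in Cy5 and positive with A150 in Cy3.

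The snRNP proteins outside the rings had a class median of 0.37 ± 0.35 over 10 genes. SNRNP27, a tri-snRNP protein, had 1.78, 1.20, 1.01 and 2.15 (1.53 ± 0.52, limma adjusted p = 0.130), above 1 on every array, and was above background on 1 array in A-. SNRPA1, the U2 A′ protein, had 1.03, 1.22, 2.40 and 1.41 (1.52 ± 0.61, limma adjusted p = 0.148), but its other probe had -0.45 ± 1.28. SNRNP25, a protein of the minor spliceosome, had 0.29, 3.82, 1.04 and 1.04 (1.55 ± 1.55), a mean that array 2 lifts.

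SNRNP40, a WD-repeat protein of U5, had the lowest mean of all measured spliceosome genes, at -1.22, -3.80, -1.25 and -2.55 (-2.21 ± 1.23, or 4.61-fold toward A-, limma adjusted p = 0.169). All 4 arrays were below -1, and 98.3% of tested genes had a higher mean. SNRPC, the U1 C protein, had -5.14, -0.01, -2.18 and 0.76 (-1.64 ± 2.64), while its other probe had 1.02 ± 0.89. SNRPA, the U1 A protein, had -0.60, -1.31, 0.49 and 0.01 (-0.35 ± 0.78), within its spread around 0.

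Sorting the particle-specific proteins by particle, a grouping made after the values were seen, put the 7 U2 proteins (SNRPA1, SNRPB2 and the SF3 genes) at a median of 1.82, 1.22, 0.43 and 0.62 (1.02 ± 0.63), with 7 of 7 positive means. The 3 U1 proteins had a median of -0.28 ± 0.53 with 1 positive mean (SNRNP70, 0.05 ± 0.64), and the 6 tri-snRNP proteins 0.36 ± 0.56 with 4 positive means. The U2AF genes, whose products bind the polypyrimidine tract and the AG at the 3′ splice site, were both positive: U2AF2 had 1.03, 0.38, 0.72 and 1.33 (0.87 ± 0.41, limma adjusted p = 0.270), and U2AF1 had 3.70, 0.36, -0.76 and -0.20 (0.77 ± 2.01). The mean of U2AF1 rests on array 1, and the other probe of U2AF2 had -0.20 ± 0.43. The positive U2 count therefore rests on the brightest probe of SNRPA1 and SF3B1. The negative U1 means, of SNRPC and SNRPA, likewise rest on the brightest probe, since their other kept probes had means of 1.02 and 0.13.

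The hnRNPs coat nascent transcripts and many repress splice sites. Their 16 measured genes lay on both sides of 0, with 10 positive means (62.5%, against 50.6% of all tested genes) and a class median of 0.77, 0.08, 0.85 and 0.00 (0.42 ± 0.45). HNRNPA3 had 1.80, 1.43, 0.97 and 0.38 (1.14 ± 0.61, limma adjusted p = 0.221), and HNRNPC, which binds uridine-rich tracts, had 1.61, 0.65, 1.39 and 0.46 (1.03 ± 0.56, limma adjusted p = 0.250). Both were positive on every array. HNRNPR had 2.53, 0.05, 1.12 and 1.25 (1.24 ± 1.02, limma adjusted p = 0.324), with no A- spot well above background. The interval of the fit for HNRNPR, 0.09 to 2.39, also takes in much smaller differences, so no least fold is given. HNRNPH3 had 1.68, 1.92, -0.34 and 2.69 (1.49 ± 1.30), with its other probes at 1.43 and 0.34.

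HNRNPDL, an hnRNP D-like protein that the older symbol had kept out of the 66, had the lowest SD of the measured spliceosome genes, those found by current symbol included: 1.91, 1.22, 1.75 and 1.79 (1.67 ± 0.31, limma adjusted p = 0.105). Its other probes had means of -0.26 and 0.93, so not all of its probes shared the positive direction. On the negative side, HNRNPH1, which binds guanine-rich elements, had -1.47, -1.25, -3.42 and -1.10 (-1.81 ± 1.09, limma adjusted p = 0.192), while its other probe had 1.17 ± 1.50. HNRNPU had -2.20, -3.86, 1.99 and -0.39 (-1.11 ± 2.51). HNRNPK, a poly(C)-binding protein, had 2.58, -5.15, 2.19 and -3.57 (-0.99 ± 3.95), the largest SD of the measured spliceosome genes. HNRNPK changed sign between arrays of the same orientation, and another of its probes followed the same course (3.72, -3.92, 2.10 and -1.57).

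The SR proteins bind exonic enhancers and promote splicing. Of 10 SR genes 8 were measured, 5 with a positive mean, and the class median was 0.31, -0.33, 0.32 and 0.12 (0.11 ± 0.31), within its spread around 0. The gene means were widely spread (-1.51 to 1.65), and their median (0.71) was well above the mean of the array medians. SRSF7 had 0.04, 2.11, 2.97 and 1.47 (1.65 ± 1.23, limma adjusted p = 0.271), the 1 SR gene with 4 positive arrays. SRSF1, the prototype of the family, had 3.05, -0.59, 0.27 and 1.92 (1.16 ± 1.63), with its other probe at -0.46. SRSF4 had 2.90, 2.69, -0.72 and 0.23 (1.28 ± 1.80, or 2.42-fold toward A150, limma adjusted p = 0.537), with no A- spot well above background. The interval of the fit for SRSF4 ran from -0.58 to 3.13 and included 0, so no least fold is given.

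SRSF3, the smallest SR protein, had -2.58, -1.07, -0.09 and -1.51 (-1.31 ± 1.03), negative on every array. None of its A150 spots was well above background. Its mean was 2.48-fold toward A- (limma adjusted p = 0.305), but the interval of the fit, -2.47 to -0.15, also takes in much smaller differences. SRSF10, a splicing repressor when dephosphorylated, had -1.52, -0.33, -3.46 and -0.43 (-1.44 ± 1.46), and its 4 other kept probes ranged from -0.93 to 0.89. SRSF5 had -3.10, -3.76, 0.38 and 0.44 (-1.51 ± 2.23): it was strongly negative with A150 in Cy5 and slightly positive with A150 in Cy3.

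**Figure D4:**
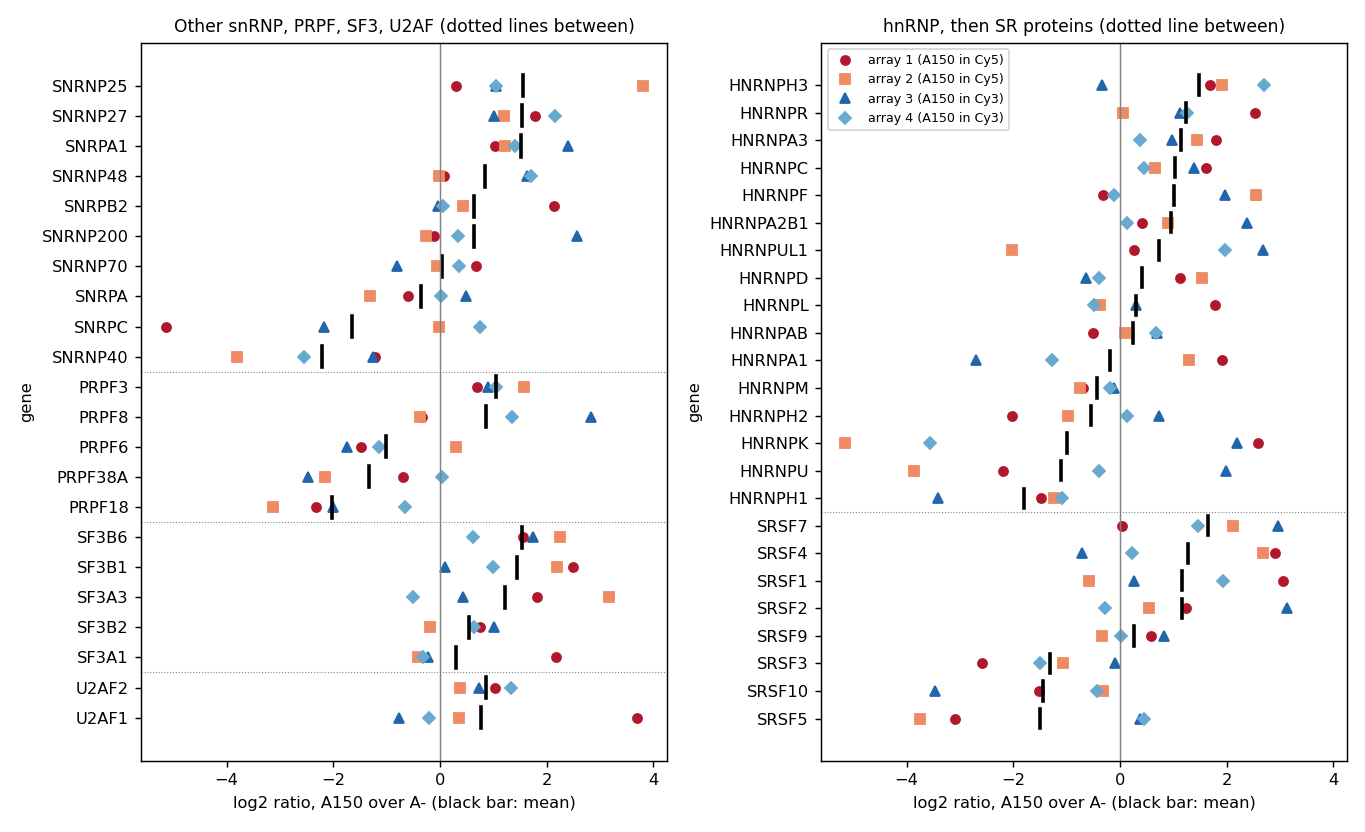
Log2 ratio of A150 over A- on each of 4 arrays (symbols by array) for the snRNP proteins outside the rings, the PRPF, SF3 and U2AF genes (left) and the hnRNP and SR genes (right), with the mean as a black bar. SNRNP40, PRPF18 and SRSF3 are below 0 on all 4 arrays, and SNRNP27, PRPF3 and SF3B6 above 0.

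Several genes had more than 1 kept probe, which gave a check within the array. Of the 16 such genes among the 52, the 3 Sm and LSm genes (SNRPG, LSM7 and LSM5) had probe means of the same sign, all near or above 1. Of the other 13 genes, 10 had probe means of opposite sign (SF3B1, SNRPC, U2AF2, PRPF38A, PRPF18, SNRPA1, HNRNPH1, SNRPA, HNRNPK and HNRNPM). In each of these 10 genes, however, a probe mean on 1 side of 0 was within its spread around 0. This held for another probe than the brightest in HNRNPK (0.08), SNRPA (0.13), U2AF2 (-0.20), PRPF38A (0.24) and SF3B1 (-0.25). It also held for another probe in SNRPA1 (-0.45), HNRNPM (0.56), PRPF18 (0.77) and HNRNPH1 (1.17), and for the brightest probe of SNRPC (-1.64 ± 2.64). How often probes differ in sign over all genes of the array was not worked out. The cause of the opposite signs was not tested.

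**Figure D5:**
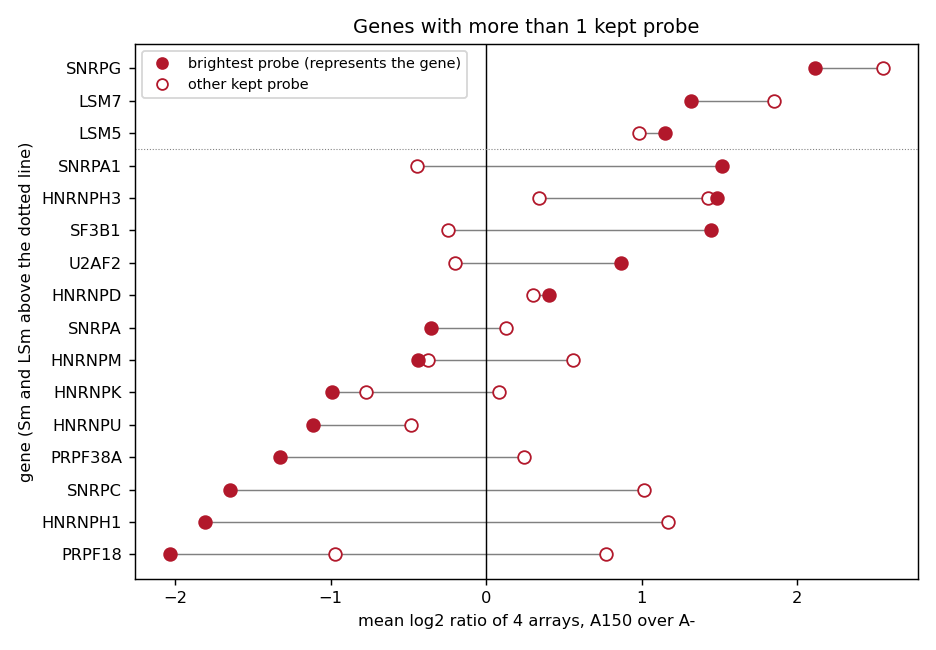
Mean log2 ratio of A150 over A- over 4 arrays of each kept probe for the 16 genes with more than 1 kept probe, the brightest probe filled. The probes of SNRPG, LSM7 and LSM5 stay together on the positive side, whereas 10 of the other 13 genes have probes on both sides of 0.

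Spot brightness, which depends on the probe and is no measure of RNA amount between genes, moved with the ratio. Across all tested genes the median ratio was -0.06 at a mean log2 signal of 9 to 10 and 0.39 above 11. The median log2 signal was 10.96 for Sm and LSm genes, 9.99 for PRPF with SF3, 10.8 for hnRNPs, 10.4 for SR genes and 9.48 for all tested genes. Of the spliceosome genes with a signal of 8 to 9, 1 of 3 had a positive mean, against 52.1% of all genes there. Within the range of 9 to 10, 15 of 18 spliceosome genes had a positive mean, against 44.8% of all genes there. From 10 to 11 it was 7 of 14, against 54.5%, and above 11 it was 15 of 17, against 59.9%. The spliceosome share was thus above that of equally bright genes at 9 to 10 and above 11, and not at 8 to 9, which holds few of the genes, or at 10 to 11. Of the spots, 87.5% of the Sm and LSm ones were above background in A150 and 73.2% in A-, against 70.5% and 65.4% for all tested genes, whereas the SR spots stood at 68.8% and 71.9%.

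Other genes of splicing and snRNP assembly gave no such lean. In a list of 85 further genes (core and accessory splicing factors, exon junction proteins, SR-like proteins, minor spliceosome, snRNP assembly and decapping), 63 were measured, 35 with a positive and 28 with a negative mean. Their median was 0.06 ± 0.09, close to that of all tested genes (0.05 ± 0.11). Limma called 0 of them either way after adjustment, and at an unadjusted p under 0.05 there were 6 toward A150 (9.52%, against 9.69% of all tested genes) and 1 toward A- (1.59%, against 4.19%). A positive mean was found for 19 of 32 core and accessory factors, 3 of 6 exon junction genes, 3 of 7 SR-like genes, 5 of 11 assembly genes, 1 of 3 decapping genes and all 4 minor spliceosome genes, against 50.6% of all tested genes. Of those 4, 3 were kept through A150 alone, which favours a positive ratio. The assembly genes past the unadjusted level were CLNS1A, which chaperones Sm proteins before ring assembly, at 1.33 ± 0.57, GEMIN8, a subunit of the SMN complex, at 1.96 ± 1.77, and PHAX, the export adaptor of snRNA, at -1.76 ± 0.61 (limma adjusted p = 0.123). The other probes of PHAX had means of 0.97 and 0.37.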

How the data were processed

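RNA of 4 pools of germinal vesicle oocytes was measured on 4 two-colour arrays, each with the A150 and the A- fraction of 1 pool in opposite dyes. The deposited files hold raw spot intensity values per the file headers (mean and median brightness and local background, without subtraction). The authors' deposited table holds log2 ratios. Set against loess-normalised A150 over A- ratios from uncorrected spot means, its columns correlated at 0.996 to 0.999 and had slopes of 0.837 to 1.22. Their medians were -0.011, -0.0098, 0.020 and 0.012. The direction of the deposited ratios is thus settled, but not a common scale over the arrays. The reason for the unequal slopes stays unknown. No source used here names the scanner or its software.

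Spot means were corrected with normexp (offset 50) and normalised within arrays by loess, control spots at weight 0, in limma 3.58.1 under R 4.3.3, and the signs of arrays 3 and 4 were turned. Log2 ratios were tested against 0 with lmFit and eBayes (3 residual degrees of freedom), adjusted over all 19453 probes or 7799 genes. The p-values take in the spread of the pools and that of the arrays at once, and the number of arrays limits the precision. The ratio holds the pairing of the fractions within each pool, since both share an array.

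Symbols came from the platform annotation (21790 probes with 1 symbol, 22004 with none). Against the RefSeq table of ARS-UCD2.0, 20025 were current, 1524 were updated and 241 were kept as annotated. Classes were compared by the median over genes on each array, as descriptions with no test. Named genes were all measured Sm and LSm genes, the 3 highest and 3 lowest of each other class, and members with an unadjusted p under 0.05 and 1 sign on all arrays. Genes named beyond that complete a class, particle or probe set and were chosen after their values were seen. Members and lists were chosen with earlier results of these data known. Sequences, protein lengths and coordinates were not used here. Alternatives covered background correction, normalisation, filters, the authors' ratios, dye, symbols, probes per gene and leaving out each array.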

Additional observations from a re-analysis of the deposited data

Results flagged for a closer look

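In 3 of 63 sets of 4 values tested (the measured genes and the class medians), 1 array stood far from the other arrays by Dixon's criterion, and chance gives about 1 in 20. For SNRPE, array 3 had -1.15 while the others lay between 1.59 and 1.99. For SF3A1, array 1 had 2.17 while the others lay between -0.41 and -0.22. For HNRNPH1, array 3 had -3.42 while the others lay between -1.47 and -1.10. Their causes were not tested.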

How the results depend on the processing

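Over the 17 alternative settings that gave a value, the median of the spliceosome gene means stayed between 0.54 and 1.06. Over 17 (18 for hnRNPs), 1 of them chosen after seeing the data, the Sm and LSm median exceeded that of PRPF with SF3 by 0.39 to 1.21, of hnRNPs by 0.31 to 1.07 and of SR genes by 0.39 to 1.51. Leaving out 1 array at a time gave 0.62 to 0.80 for that median, 33 to 40 positive genes, and 0.95 to 1.36 for the Sm and LSm median, with differences of 0.74 to 1.01, 0.65 to 0.89 and 0.92 to 1.26. Values that moved beyond their spread were a Sm and LSm median of 1.72 under median centring, a PRPF median of -1.57 with the background level at 3 SD, and a difference from PRPF with SF3 of 1.21 with no filter. Single channels gave no class values, and the strictest filter none for PRPF with SF3 or SR genes. With only probes that both fractions showed above background on all 4 arrays, 10 of 11 genes were positive, against 58.9% of all 956 genes. The hnRNP median was then 1.05, where the median of all gene means had also risen, to 0.31. The difference from hnRNPs was 0.31. Under the median of gene means, the SR median was 0.71, the difference from SR genes 0.39 and that from PRPF with SF3 0.39. The SR median changed sign in 3 alternatives, down to -0.13. U2AF2 reversed to -0.20 under Aquantile, where its other probe became the brightest. With no normalisation within arrays, 3 spliceosome probes were called toward A150 (LSM2, adjusted p = 0.0368, and both SNRPG probes, 0.0317 and 0.0221) and 1 gene (SNRPG). That setting put the median of all genes at -0.38 (the spliceosome median lay 1.10 above it) and called 300 probes toward A150 and 355 toward A-, and 89 and 49 genes, over the whole array, against 0 and 12 probes and 0 genes. The filter on both fractions called 116 and 128 probes and 0 and 1 gene, and no array left out gave a call. Of 46 named genes, 33 kept their sign under every setting and 1 passed the adjusted level under any. Single channels with no replicate block, which also used Aquantile, called 77 and 124 probes and 12 and 13 genes, of which 0 were spliceosome probes or genes. So few calls over the whole array leave hardly any to be found among the spliceosome genes. Whether the pairing within arrays mattered to the spliceosome genes therefore cannot be read from these counts. In the authors' deposited table, 38 of 52 genes were positive, with medians over arrays of 0.84 ± 0.38 for Sm and LSm genes, 0.24 ± 0.16 for PRPF with SF3, 0.23 ± 0.24 for hnRNPs and 0.06 ± 0.18 for SR genes.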

Other observations

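Among the further splicing genes with an unadjusted p under 0.05, CTNNBL1, a protein associated with the activated spliceosome, had a mean log2 ratio of 2.03 ± 1.27 and was above background on no array in A-. CWC22, which brings exon junction proteins to the spliceosome, had 1.91 ± 1.13, SUGP1 (annotated as SF4) had 0.92 ± 0.23, and EDC3, an enhancer of decapping, had 0.95 ± 0.64. None of these passed limma's adjusted level. Across the 52 measured spliceosome genes, the ratios of arrays in the same dye orientation correlated at 0.40 (arrays 1 and 2) and 0.19 (arrays 3 and 4), and those in opposite orientation at 0.10 to 0.44. These are descriptions across genes, which are not independent replicates.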
